A study of Mus musculus with 35 samples.

Results

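Ribosomal protein pseudogenes were taken as all genes of the count files whose symbol starts with Rpl or Rps and contains -ps, whose annotated type is a pseudogene, and which had at least 10 counts summed over the 35 libraries. Of the 285 genes with such a symbol and type among the 52636 genes counted, 162 met this rule, 65 had no count in any library and 58 had between 1 and 9 counts. Each of the 162 pseudogenes was set beside the ribosomal protein gene that its symbol names, which gave 55 parent genes. Of the candidates just below the minimum, 13 had 7 to 9 counts, and 4 members just above it had 10 to 12.

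Ribosomal proteins build the small and the large subunit of the ribosome, and their mRNAs are among the most abundant of a cell. A processed pseudogene is an intronless copy of an mRNA that was written back into DNA and inserted elsewhere in the genome, and highly transcribed genes such as those of ribosomal proteins have left many of them. Such a copy starts without the promoter of its parent, so that its transcription, where there is any, depends on the place of insertion, and its sequence stays close enough to the parent that a short read may match both. Gene counts therefore cannot tell a transcript of the pseudogene from a read of the parent that was placed there.

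Cells of the basolateral amygdala were collected by laser capture microscopy from female mice of the inbred strain C57BL/6J and of B6D2F1N, the F1 hybrid of C57BL/6 and DBA/2 mice. The mice lived in standard housing or, from postnatal day 77, had access to an enriched playground for 1 h per day, and all of them had been trained from postnatal day 70, for 37 to 90 days, for a touchscreen test of cognitive judgment bias. In the anterior amygdala, 4 C57BL/6J and 5 B6D2F1N libraries came from standard housing and 2 and 5 from enriched housing. In the posterior amygdala, 4 and 5 libraries came from standard and 4 and 6 from enriched housing. The 35 libraries came from 19 mice, of which 16 gave a library of each portion, and each library came from 1 mouse. By the distances from bregma in the study's methods, the portion named posterior lies in front of the one named anterior; the names of the labels are kept here.

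Library totals over all genes ran from 16938534 to 27352623 counts. Of these the members together received 543 to 2557, with 78 to 124 members detected in a library. None of the 5 marker genes of excitatory neurons of the basolateral amygdala was at 0 throughout either strain, and their summed level ranged from 1073 to 5222 CPM (counts scaled to library size) in C57BL/6J and from 988 to 3995 CPM in B6D2F1N libraries. All 5 oligodendrocyte markers were present as well (7296 to 29040 and 2432 to 31580 CPM), and those of ependymal cells and choroid plexus had medians of 161 (C57BL/6J) and 968 CPM (B6D2F1N); the part of cell composition in the results below was not tested. The 2 libraries of the B6D2F1N standard mouse numbered 1 here had 0 counts of Xist, against 1191 to 4831 in the other libraries, although all mice are labelled female. The tests of the named members in standard housing, the counts of members without overlap and the members' share are therefore also given without that mouse.

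The members differed widely in how far they can be told from other genes. Their length had a median of 465 bases, 160 of the 162 had 1 exon, and 12 lie on the X chromosome. The aligned bases covered a median of 99.7% of the parent's coding sequence, but only 1.57% in Rpl13-ps1, 2.12% in Rpl18-ps1 and 3.24% in Rpl17-ps11. Over the aligned bases, the median identity was 98.1% (range 74.8 to 100%), and 97 members had neither a gap nor an in-frame stop codon in them. Rpl13-ps1, Rpl18-ps1 and Rpl17-ps11 are among the 97, so this number does not count intact copies. Of all windows of 72 bases, the read length, that a member holds, a median of 38.4% had an exact copy in a transcript of another annotated gene. In 19 members this held for every window and in 22 members for none. Relative to other genes, 95 members lie outside them, 38 in an intron on the opposite strand, 23 in an intron on the same strand, and 6 overlap an exon.

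The following stretches are shown because the comparison of the strains turned on their genes, or, for Rpl31-ps8, as a copy identical to its parent. Each pair gives the 150 ungapped bases with the most differences between a member and the coding sequence of its parent, 5′ to 3′ on the strand of the gene, from the GENCODE M21 transcripts of GRCm38, with differing bases in capitals. Rps15a-ps8 (ENSMUSG00000084403, chr4:53791070-53791456, minus strand, outside other genes) has 30 substitutions in 387 bases, and its stretch is chr4:53791307-53791456.
Rps15a-ps8: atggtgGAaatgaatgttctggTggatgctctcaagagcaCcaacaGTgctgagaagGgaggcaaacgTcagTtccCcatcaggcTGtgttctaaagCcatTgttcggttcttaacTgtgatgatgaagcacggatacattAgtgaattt
Rps15a: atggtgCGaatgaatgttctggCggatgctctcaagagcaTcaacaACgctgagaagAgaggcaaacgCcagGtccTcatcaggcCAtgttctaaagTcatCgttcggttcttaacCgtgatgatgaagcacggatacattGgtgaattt
Counted from the first base of the parent's start codon, the parent's base first, the first of its 16 substitutions in this stretch are C7G, G8A and C23T. Rplp0-ps1 (ENSMUSG00000081640, chr3:93278141-93279073, plus strand, in an intron of Flg on the same strand) has 41 substitutions and 15 gap bases against the parent, and its stretch is chr3:93278712-93278861.
Rplp0-ps1: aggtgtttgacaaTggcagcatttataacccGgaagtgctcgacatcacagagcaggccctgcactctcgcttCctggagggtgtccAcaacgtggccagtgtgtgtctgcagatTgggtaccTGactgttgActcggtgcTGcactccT
Rplp0: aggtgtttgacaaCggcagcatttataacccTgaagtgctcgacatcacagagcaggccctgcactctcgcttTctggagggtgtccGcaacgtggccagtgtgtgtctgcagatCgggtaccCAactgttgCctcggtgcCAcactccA
Rpsa-ps10 (ENSMUSG00000047676, chr3:150072658-150073542, minus strand, outside other genes) has 6 substitutions in 885 bases, of which T210C, C219T and C345G fall in chr3:150073198-150073347.
Rpsa-ps10: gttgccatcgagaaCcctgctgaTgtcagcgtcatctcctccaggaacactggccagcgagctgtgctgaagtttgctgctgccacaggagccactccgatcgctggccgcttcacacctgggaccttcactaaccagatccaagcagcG
Rpsa: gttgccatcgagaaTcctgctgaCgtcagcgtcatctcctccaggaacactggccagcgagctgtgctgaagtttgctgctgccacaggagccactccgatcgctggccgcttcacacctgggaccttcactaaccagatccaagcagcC
Rpl3-ps1 (ENSMUSG00000084349, chrX:13202571-13203780, plus strand, outside other genes) has 2 substitutions, of which C57A falls in chrX:13202572-13202721.
Rpl3-ps1: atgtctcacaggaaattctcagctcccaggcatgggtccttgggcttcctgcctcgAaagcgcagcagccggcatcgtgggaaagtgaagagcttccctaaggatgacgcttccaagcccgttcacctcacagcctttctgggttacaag
Rpl3: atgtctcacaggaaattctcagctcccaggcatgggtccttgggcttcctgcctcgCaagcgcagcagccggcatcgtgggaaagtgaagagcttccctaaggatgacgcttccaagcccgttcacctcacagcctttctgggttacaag
Rpl31-ps8 (ENSMUSG00000067870, chr15:90764279-90764656, minus strand, outside other genes) has the 378 bases of the coding sequence of Rpl31 without a difference, as its first 150 bases at chr15:90764507-90764656 show.
Rpl31-ps8: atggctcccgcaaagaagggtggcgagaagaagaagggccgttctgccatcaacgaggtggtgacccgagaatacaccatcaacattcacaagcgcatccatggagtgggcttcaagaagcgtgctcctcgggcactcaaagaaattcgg

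In these 5 copies, the share of 72-base windows with an exact copy in another gene was 0% for Rps15a-ps8, 14.4% for Rplp0-ps1, 76.0% for Rpsa-ps10, 94.9% for Rpl3-ps1 and 100% for Rpl31-ps8. With up to 2 mismatches, which an aligner may accept, the shares were 34.5, 54.2, 100, 100 and 100%. Windows were searched for in annotated transcripts only, so that copies in introns and between genes were not counted. All sequences are those of the C57BL/6J reference, and the DBA/2 alleles that B6D2F1N mice also carry were not analysed here.

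The question put to each housing and portion was whether the strains differed in the reads of these pseudogenes beside those of the parent genes. Rpsa-ps10, Rpl3-ps1 and Rps15a-ps8 were higher in B6D2F1N mice in the anterior and posterior amygdala of standard housing and in the posterior amygdala of enriched housing (adjusted p of at most 0.05, edgeR quasi-likelihood F test, Benjamini-Hochberg adjustment over all genes tested). These were 3 of 102, 3 of 108 and 3 of 122 members tested, against 0.325, 0.318 and 0.339% of all genes that were called higher in B6D2F1N in the same comparisons (0.37, 0.373 and 0.394% in either direction). No member was called lower in B6D2F1N in any of these comparisons, in which 0.0453, 0.0556 and 0.0546% of all genes were called lower. In the anterior amygdala of enriched housing, with 2 C57BL/6J libraries, 0 of 97 members and 15 of 23459 genes (0.0639%, with 0.0597% higher and 0.00426% lower in B6D2F1N) passed the threshold in edgeR. Of the members there, Rpsa-ps10, Rpl3-ps1, Rps15a-ps8, Rplp0-ps1 and Rps19-ps11 (5 of 97, against 4.33% of all genes) had an unadjusted p under 0.05. In the other 3 comparisons, 8, 9 and 11 members had one, against 9, 10.3 and 9.11% of all genes. DESeq2 called 4 members in standard anterior, 5 in standard posterior, 3 in enriched anterior and 4 in enriched posterior libraries, against 1.05, 1.56, 0.584 and 1.33% of all genes. Rpsa-ps10, Rpl3-ps1 and Rps15a-ps8 were among them each time. None of the 84 ribosomal protein genes tested was called in any of the 4 strain comparisons by edgeR or DESeq2, and 2, 1, 2 and 2 of them had an unadjusted p under 0.05 in edgeR in standard anterior, standard posterior, enriched anterior and enriched posterior libraries, respectively.

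Rpsa-ps10 is a copy of Rpsa, which encodes a protein of the small subunit that is also known as the laminin receptor. In standard anterior libraries, its counts were 1, 1, 1 and 2 in C57BL/6J and 131, 175, 133, 118 and 154 in B6D2F1N mice. In standard posterior libraries, they were 1, 1, 4 and 1 against 107, 221, 332, 99 and 158. With enriched housing, the anterior libraries had 3 and 3 counts against 213, 90, 239, 107 and 201.
The 4 enriched posterior C57BL/6J libraries had 2, 3, 1 and 1 counts, and the 6 B6D2F1N libraries had 104 to 304 (median 167). No C57BL/6J library thus reached the lowest B6D2F1N library. As TMM-scaled CPM, standard posterior levels were 0.0710 ± 0.0566 (SD, n = 4) in C57BL/6J and 7.76 ± 3.08 (SD, n = 5) in B6D2F1N mice. The log2 fold change, B6D2F1N relative to C57BL/6J, was 6.57 in standard anterior (standard error 0.591, edgeR adjusted p = 2.44e-05), 6.66 in standard posterior (0.651, edgeR adjusted p = 0.000114) and 6.60 in enriched posterior libraries (0.592, edgeR adjusted p = 2.29e-05). In enriched anterior libraries it was 5.75 (standard error 0.940, 95% interval 3.70 to 7.80, edgeR adjusted p = 0.0708).

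The parent Rpsa was not called in any strain comparison. Its mean level was 46.7 ± 13.4 CPM (SD, n = 4) in C57BL/6J and 41.4 ± 14.2 CPM (SD, n = 5) in B6D2F1N standard posterior libraries, with overlapping groups. Its log2 fold changes lay between -0.63 and -0.15 in the 4 comparisons, none past the threshold (edgeR adjusted p = 0.779 to 1.000). Set against the parent, Rpsa-ps10 had 0.620 to 3.70 counts per 1000 counts of Rpsa in the 14 C57BL/6J libraries and 139 to 249 in the 21 B6D2F1N libraries. When the counts of Rpsa and its 6 members were summed for each library, the log2 fold changes of the sum were 0.06, 0.09, -0.35 and -0.14 in standard anterior, standard posterior, enriched anterior and enriched posterior libraries, with 95% intervals of -0.43 to 0.54, -0.49 to 0.67, -1.13 to 0.43 and -0.77 to 0.49.

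**Figure D1:**
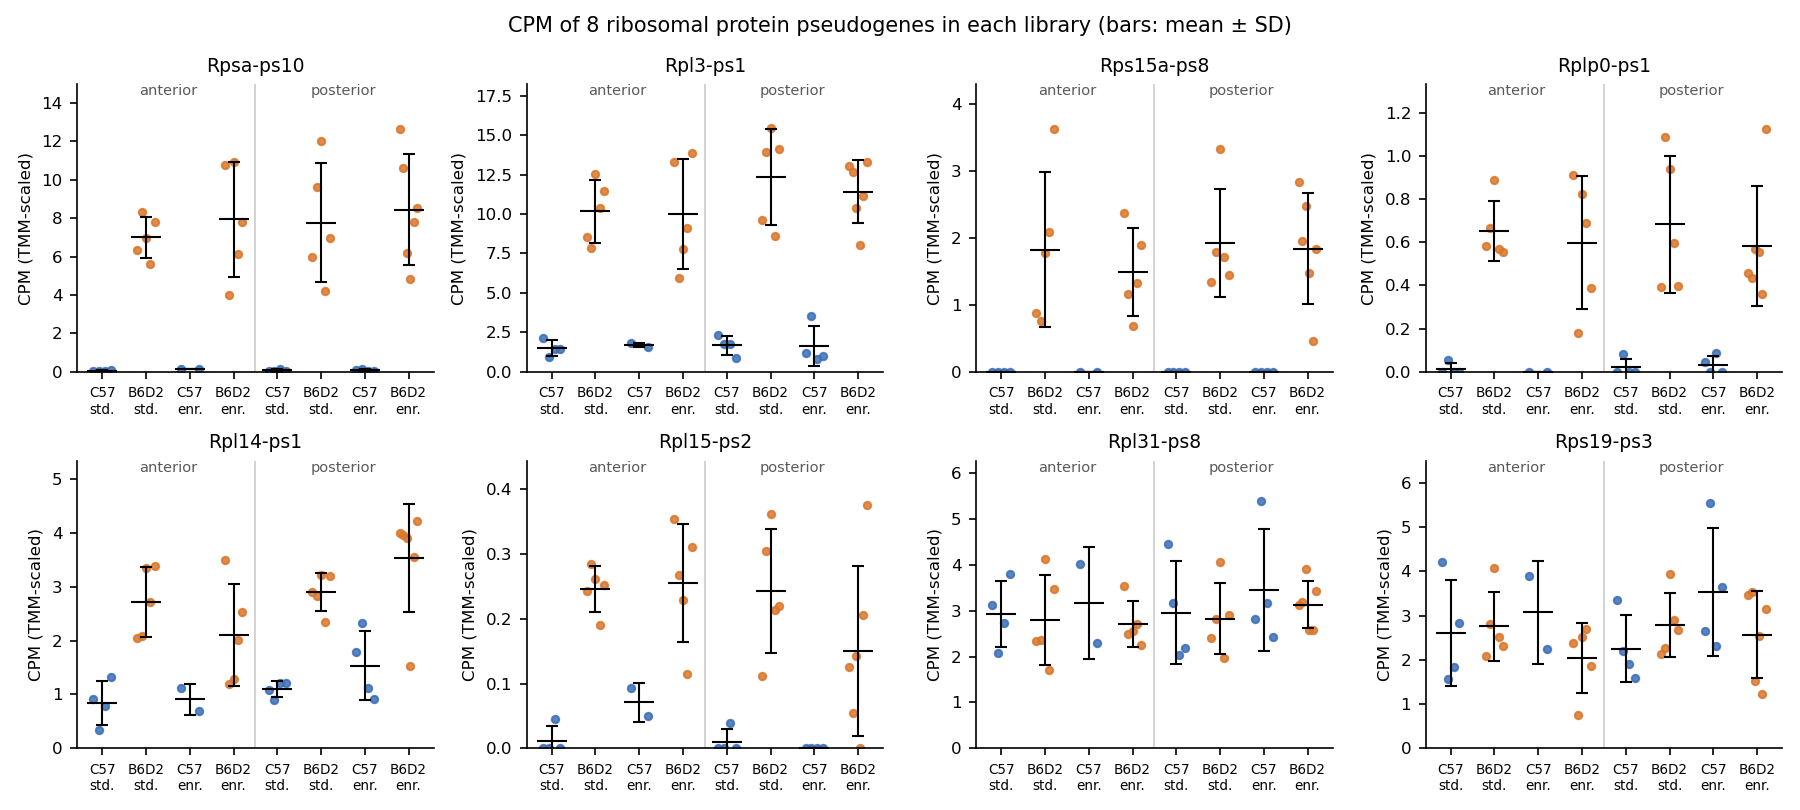
CPM of 8 pseudogenes in each of the 35 libraries (points, blue for C57BL/6J and orange for B6D2F1N mice), by housing (std., standard; enr., enriched) and portion, with mean and SD as bars. In Rpsa-ps10, Rpl3-ps1, Rps15a-ps8 and Rplp0-ps1, every B6D2F1N library lies above every C57BL/6J library, whereas the strains overlap in Rpl31-ps8 and Rps19-ps3.

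Rpl3-ps1 is a copy of Rpl3, a core protein of the large subunit, and had the most counts of all members (5472 over the 35 libraries). Like Rpsa-ps10, it was detected in all 35 libraries, but with at least 17 counts in each. In standard anterior libraries, its counts were 38, 17, 32 and 25 in C57BL/6J and 176, 165, 240, 219 and 227 in B6D2F1N mice. In standard posterior libraries, they were 56, 43, 45 and 19 against 172, 320, 426, 202 and 321. With enriched housing, the anterior libraries had 39 and 32 counts against 263, 133, 170, 158 and 358.
The enriched posterior libraries of C57BL/6J mice had 28, 73, 19 and 19 counts, and those of B6D2F1N mice 173 to 313 (median 225.5). The groups did not overlap in any housing or portion. Its log2 fold change was 2.75 in standard anterior (standard error 0.390, edgeR adjusted p = 0.00231), 2.89 in standard posterior (0.391, edgeR adjusted p = 0.00232) and 2.79 in enriched posterior libraries (0.462, edgeR adjusted p = 0.00832). In enriched anterior libraries it was 2.58 with a 95% interval of 1.13 to 4.02 (edgeR adjusted p = 0.729).

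Rpl3 itself had log2 fold changes of -0.38 to -0.08 in the 4 comparisons, none past the threshold (edgeR adjusted p = 0.769 to 1.000). Per 1000 counts of Rpl3, the mean number of Rpl3-ps1 counts lay between 5.64 ± 2.29 (SD, n = 4) and 7.17 ± 0.685 (SD, n = 2) in the C57BL/6J groups and between 51.5 ± 7.08 (SD, n = 5) and 55.7 ± 3.16 (SD, n = 5) in the B6D2F1N groups. The spread within a strain was thus small against the step between strains, and the means of the 4 groups of a strain lay close together. The sum of Rpl3 and its 2 members had log2 fold changes of -0.02, -0.07, -0.31 and -0.22 in the order of comparisons given above, with the 95% interval of each including 0. Rpl3-ps1 lies on the X chromosome, and the mouse without Xist counts had 176 counts of it in the anterior and 172 in the posterior library. Per 1000 counts of Rpl3, these were 54.1 and 54.3. Both lay within the B6D2F1N standard groups, which ran from 45.3 to 62.6 in anterior and from 48.6 to 57.2 in posterior libraries.

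Rps15a-ps8 is a copy of Rps15a, a protein of the small subunit, and had 0 counts in all 14 C57BL/6J libraries. In standard anterior libraries of B6D2F1N mice, its counts were 18, 16, 34, 44 and 72. In standard posterior libraries they were 24, 41, 92, 40 and 33. The enriched anterior libraries had 47, 26, 15, 23 and 49 counts, and the 6 enriched posterior libraries 9 to 68 (median 37.5). It was thus detected in each of the 21 B6D2F1N libraries and in no library of the other strain.

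A count of 0 allows up to 3 counts per library, and against that limit Rps15a-ps8 was at least 11.3-fold higher in B6D2F1N in standard anterior, at least 15.3-fold in standard posterior, at least 10.3-fold in enriched anterior and at least 13.0-fold in enriched posterior libraries. The counting intervals below are taken on the totals of a group's libraries. These limits and intervals take in counting error alone and not the variation between mice, and no molecular identifiers were used. The edgeR adjusted p was 0.0231, 0.00932, 0.823 and 0.00832 in that order. In standard anterior libraries the call did not hold when C57BL/6J replicate 1, 3 or 4 or B6D2F1N replicate 3, 4 or 5 was left out (edgeR adjusted p = 0.0520 to 0.0853). The parent Rps15a had log2 fold changes of -0.32 to -0.19, none past the threshold (edgeR adjusted p = 0.882 to 1.000), and the sum of Rps15a and its 6 members had -0.24 to -0.10.

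Without the mouse at 0 counts of Xist, the 3 members remained past the threshold in standard housing, with log2 fold changes of 6.61 and 6.75 for Rpsa-ps10 and 2.82 and 2.98 for Rpl3-ps1 in the anterior and posterior amygdala, respectively (edgeR adjusted p = 8.03e-05 to 0.00398 for these 4 values). For Rps15a-ps8 the edgeR adjusted p was then 0.0267 and 0.0138. The other named members stayed short of the threshold without that mouse, with edgeR adjusted p of 0.328 and 0.201 for Rplp0-ps1, 0.438 and 0.345 for Rpl14-ps1, 0.477 and 0.336 for Rpl15-ps2, 0.999 and 0.996 for Rpl31-ps8, and 0.960 and 0.866 for Rps19-ps3.

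Rplp0-ps1 is a copy of Rplp0, a protein of the stalk of the large subunit, and had the smallest p among the members that edgeR called in none of the 4 strain comparisons. In standard anterior libraries, its counts were 0, 1, 0 and 0 in C57BL/6J and 12, 14, 17, 12 and 11 in B6D2F1N mice. In standard posterior libraries, they were 0, 2, 0 and 0 against 7, 25, 26, 14 and 9. With enriched housing, the anterior libraries had 0 and 0 counts against 18, 4, 18, 12 and 10.
The enriched posterior libraries of C57BL/6J mice had 1, 0, 2 and 0 counts, and those of B6D2F1N mice 7 to 24 (median 11.5). Although no library of one strain overlapped the other, edgeR gave adjusted p-values of 0.332, 0.279, 1.000 and 0.372 for standard anterior, standard posterior, enriched anterior and enriched posterior libraries. DESeq2 called it in 3 of the 4 comparisons (DESeq2 adjusted p = 0.0260, 0.0260 and 0.0486 for standard anterior, standard posterior and enriched posterior libraries). The ratio of the group totals, scaled by library size, was 48.5 in standard anterior (exact 95% counting interval 8.41 to 1944), 33.9 in standard posterior (9.10 to 285) and 16.8 in enriched posterior libraries (5.52 to 83.1), and it was at least 4.14-fold in enriched anterior libraries. Each ratio in standard housing rested on 1 C57BL/6J library, replicate 2. Without it Rplp0-ps1 was at least 4.08-fold higher in B6D2F1N in anterior and at least 5.39-fold in posterior libraries. In enriched posterior libraries the ratio was 36.6 without C57BL/6J replicate 3 (exact 95% counting interval 6.36 to 1464).

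The parent Rplp0 differed in the opposite direction, without passing the threshold. Its level was 143 ± 37.0 CPM (SD, n = 4) in C57BL/6J and 96.7 ± 26.7 CPM (SD, n = 5) in B6D2F1N standard anterior libraries, and 162 ± 63.1 (SD, n = 4) and 92.1 ± 19.2 CPM (SD, n = 6) in enriched posterior libraries. The log2 fold changes of Rplp0 were -0.56, -0.44, -0.69 and -0.81 in standard anterior, standard posterior, enriched anterior and enriched posterior libraries (edgeR adjusted p = 0.539, 0.638, 1.000 and 0.292). Rplp0-ps1 is the only member of this family here, and adding its counts moved these values to -0.55, -0.43, -0.68 and -0.80.

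**Figure D2:**
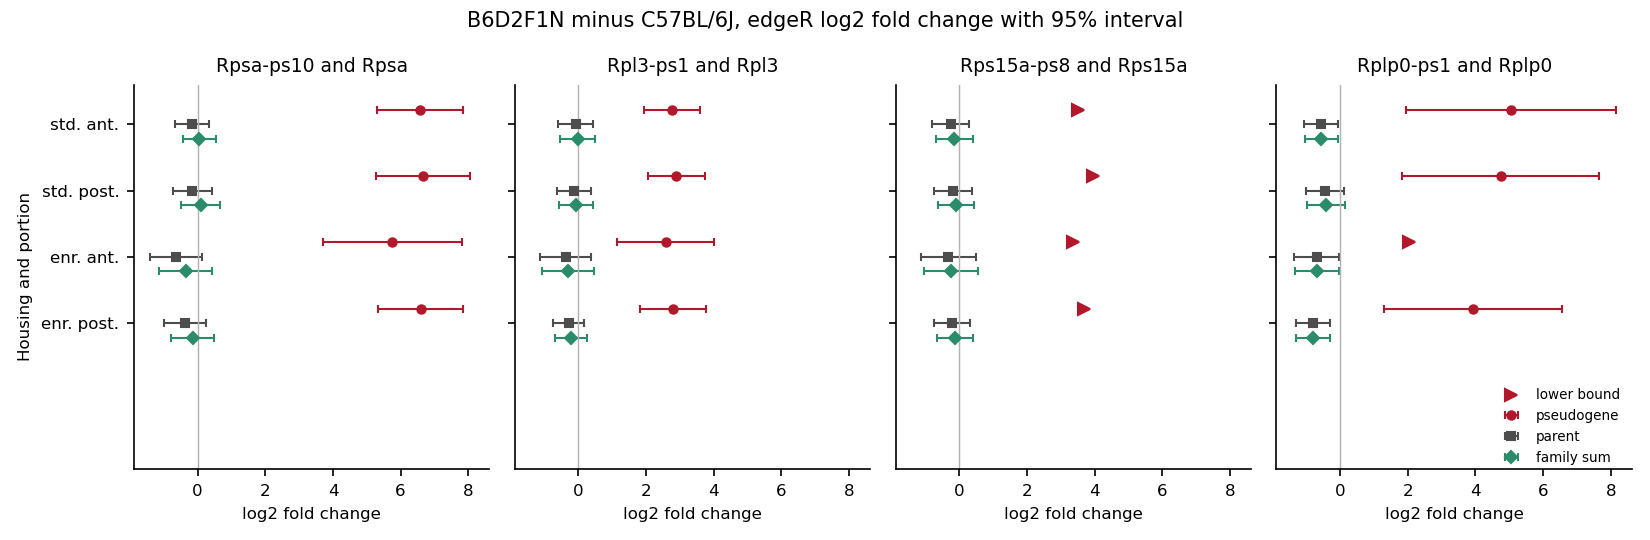
Log2 fold change, B6D2F1N relative to C57BL/6J, of 4 pseudogenes (red circles), their parents (grey squares) and the family sums (green diamonds). Libraries are standard (std.) and enriched (enr.), anterior and posterior, and bars are 95% intervals derived from the edgeR F statistic. Red triangles are lower bounds where the C57BL/6J group had 0 counts, without an interval, and the sums lie close to the parents.

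Rpl14-ps1 and Rpl15-ps2 were the other two members named for a small p that missed the threshold. Rpl14-ps1 (chr7:45324965-45325617, plus strand, in an intron of Trpm4 on the opposite strand) has 4 substitutions against Rpl14, a protein of the large subunit. In standard posterior libraries, it had 26, 22, 31 and 26 counts in C57BL/6J and 52, 65, 89, 55 and 73 in B6D2F1N mice, and the groups did not overlap. They did not overlap in the anterior libraries of either housing, but they did in the enriched posterior libraries, where B6D2F1N replicate 4 had 33 counts against up to 48 in C57BL/6J mice. The log2 fold changes were 1.69, 1.42, 1.23 and 1.20 in the order of comparisons given above (edgeR adjusted p = 0.539, 0.429, 1.000 and 0.515), and DESeq2 called the one in standard posterior libraries (DESeq2 adjusted p = 0.0179). Rpl14 itself had -0.41 to 0.00.

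Rpl15-ps2 (chr9:72060937-72061549, plus strand, in an intron of Tcf12 on the opposite strand) was much sparser, with 0 to 2 counts in the C57BL/6J and 0 to 10 in the B6D2F1N libraries. The ratio of the group totals was 18.4 in standard anterior (exact 95% counting interval 3.01 to 754), 24.3 in standard posterior (4.03 to 993) and 3.62 in enriched anterior libraries (1.12 to 18.6), and it was at least 1.06-fold in enriched posterior libraries. Without C57BL/6J replicate 3, the single library with a count, it was at least 1.45-fold in standard anterior and at least 1.89-fold in standard posterior libraries. In enriched anterior libraries the interval included equal levels when either C57BL/6J library was left out, from 0.862 to 213 without replicate 1 and from 0.711 to 24.4 without replicate 2. Its edgeR adjusted p-values were 0.448 to 1.000 in the 4 comparisons, and Rpl15, a protein of the large subunit, had log2 fold changes of -0.11 to 0.11.

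Rpl31-ps8 and Rps19-ps3, named for their high CPM, were not called. Rpl31-ps8 had the highest mean level per length of all members, at 7.88 CPM per kb of exon. The value of Rpl31 was 37.7, but over an exon length of 1662 bases, against 378 in Rpl31-ps8. Rpl31-ps8 had 37 to 108 counts in the C57BL/6J and 36 to 112 in the B6D2F1N standard libraries. Its log2 fold changes were -0.06, -0.04, -0.20 and -0.13, with 95% intervals of -1.11 to 0.99, -1.05 to 0.97, -2.01 to 1.61 and -1.05 to 0.79. Every 72-base window inside it is also in another gene, and the gene counts do not show which reads its counts rest on. Rps19-ps3 (chr4:147821777-147822202, minus strand) is a copy of Rps19, a protein of the small subunit. It had 23.4% of its windows in other genes and log2 fold changes of 0.09, 0.32, -0.57 and -0.45 (95% intervals -1.01 to 1.19, -0.71 to 1.35, -2.60 to 1.47 and -1.51 to 0.60).

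**Figure D3:**
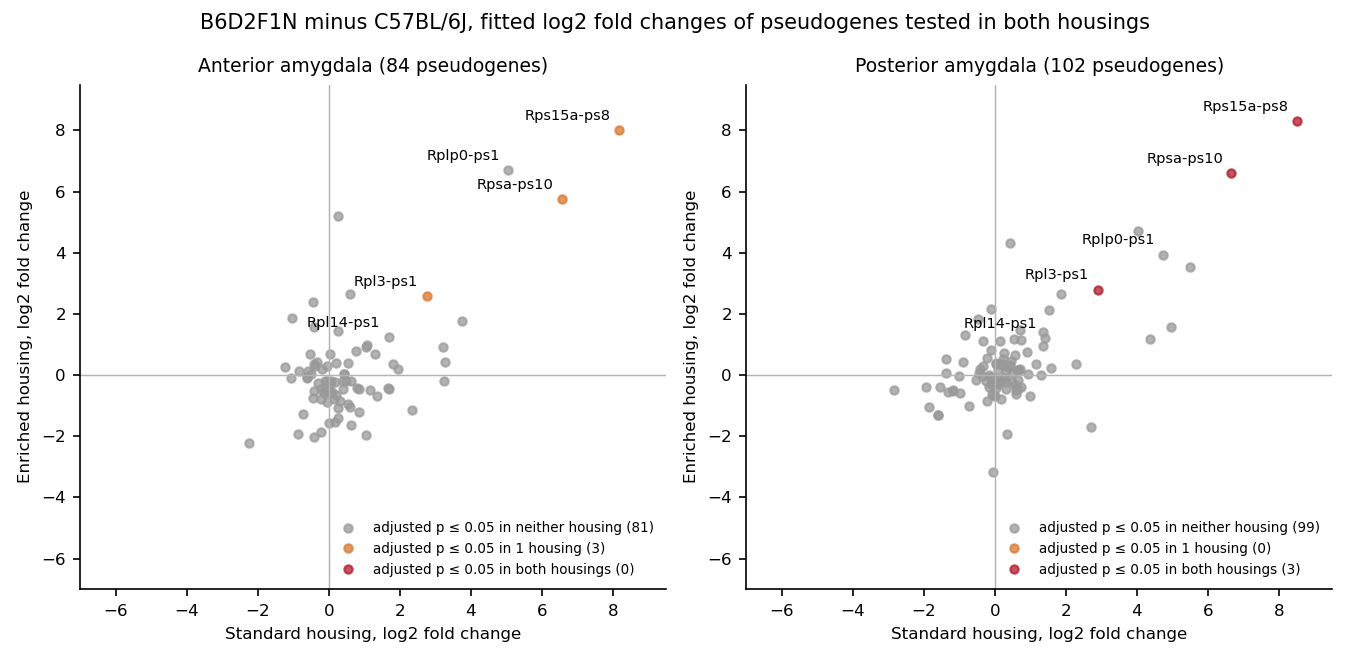
Fitted log2 fold changes, B6D2F1N relative to C57BL/6J, of the pseudogenes tested in both housings, standard on the x axis and enriched on the y axis, for the anterior and the posterior amygdala. Rpsa-ps10, Rpl3-ps1 and Rps15a-ps8 lie at the upper right in both panels, and fitted values of members at 0 counts in a group, Rps15a-ps8 among them, depend on edgeR's prior count and give no size.

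Over all 35 libraries, 4 of the 162 members were higher in every B6D2F1N than in every C57BL/6J library, which held for 0.354% of the 29697 genes with at least 10 counts. They were Rpsa-ps10, Rpl3-ps1, Rps15a-ps8 and Rplp0-ps1. None was lower in every B6D2F1N library (0.0168% of all genes). The libraries of a mouse are not independent, so that this is a description. Within the single comparisons, 8, 6, 7 and 5 members were higher without overlap in standard anterior, standard posterior, enriched anterior and enriched posterior libraries, against 2.04, 2.1, 3.16 and 1.45% of all genes. The 5 in enriched posterior libraries were Rpsa-ps10, Rpl3-ps1, Rps15a-ps8, Rplp0-ps1 and Rps13-ps4. Without the mouse at 0 counts of Xist, these were 10 of 100 members in standard anterior and 6 of 104 in standard posterior libraries, against 3.16 and 3.49% of all genes, and over all remaining libraries they were the same 4 members. Lower without overlap were 0, 0, 5 and 0 members, against 1.19, 1.36, 4.9 and 0.753% of all genes. The 5 were Rpl17-ps5, Rpl36-ps12, Rpl7a-ps7, Rpl9-ps8 and Rps10-ps2, in the comparison with 2 C57BL/6J libraries.

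Besides Rps15a-ps8, only Rpl27a-ps2 and Rpl7l1-ps1 had counts in B6D2F1N but in no C57BL/6J library, 14 counts in 5 libraries and 26 counts in 2 libraries. These 3 of 162 members compare with 2.26% of all genes. No member had counts in C57BL/6J only, a pattern found in 0.663% of all genes.

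Among the members that passed the minimum of 10 counts in a comparison, 62 of 102, 65 of 108, 43 of 97 and 63 of 122 had a positive log2 fold change in standard anterior, standard posterior, enriched anterior and enriched posterior libraries, or 60.8, 60.2, 44.3 and 51.6%, against 51.4, 53.6, 52.6 and 52.3% of all genes tested. The members' median log2 fold changes were 0.19, 0.19, -0.18 and 0.04, and those of all genes 0.02, 0.05, 0.03 and 0.03. Single libraries moved the members' medians, so that no direction is read from them. For standard anterior libraries, the median was 0.05 without B6D2F1N replicate 3 and 0.37 without C57BL/6J replicate 1. For standard posterior libraries, it was 0.03 without B6D2F1N replicate 3 and 0.27 without B6D2F1N replicate 4. For enriched anterior libraries, it was -0.34 without B6D2F1N replicate 1 and 0.21 without C57BL/6J replicate 1. For enriched posterior libraries, it was -0.07 without B6D2F1N replicate 1 and 0.39 without C57BL/6J replicate 2. These are the extremes, and other libraries also moved a median by over 1.5 times. With members at 0 counts in a group set to their bound, the members' medians were 0.13, 0.16, -0.18 and 0.00. A member seen mainly in one strain can pass the minimum through that strain alone, so these counts describe the members that passed. The ribosomal protein genes, of which 84 were tested in each comparison, had medians of -0.01, 0.06, -0.31 and -0.04. With 1 library left out, these ranged from -0.20 to 0.17, -0.09 to 0.17, -0.56 to 0.01 and -0.25 to 0.32, and the value of -0.31 in enriched anterior libraries became 0.01 without C57BL/6J replicate 1.

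When each parent was summed with its members, 0 of 55 families passed the threshold in each of the 4 strain comparisons, by edgeR as by DESeq2, against 0.359, 0.363, 0.0642 and 0.376% of all genes in these fits. Members held only 1.08 to 2.20% of the counts on members and parents in a library. The sums thus mostly repeat the parents, none of which was called. The numbers of families with an unadjusted p under 0.05 in edgeR were 2, 1, 2 and 2 of 55, against 8.97, 10.3, 4.31 and 9.09% of all genes, and the smallest adjusted p was that of the Rplp0 family in enriched posterior libraries (edgeR adjusted p = 0.306).

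The members' share of all counts on members and parents describes how the counted reads of these genes were divided between them. Copies under other symbols were not included, and reads without a unique alignment were not counted. Among the 14 C57BL/6J libraries, it ran from 1.08 to 1.51%, with a median of 1.24%. The 21 B6D2F1N libraries all lay above them, at 1.66 to 2.20%, with a median of 1.89% (1.88% over the 19 libraries without the mouse at 0 counts of Xist, with the same range). In standard posterior libraries, the share was 1.25 ± 0.192% (SD, n = 4) in C57BL/6J and 1.90 ± 0.118% (SD, n = 5) in B6D2F1N mice, at parent levels of 3732 ± 750.1 and 3729 ± 956.5 CPM, respectively. Rpsa-ps10, Rpl3-ps1 and Rps15a-ps8 made up 3.63% of the members' counts in C57BL/6J and 30.4% in B6D2F1N mice. Without these 3, the strains overlapped, with shares of 1.03 to 1.47% and a median of 1.20% for C57BL/6J, and shares of 1.10 to 1.55% and a median of 1.37% for B6D2F1N mice. Since the 3 were chosen by their strain difference, this only shows how much of the step they carry.

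**Figure D4:**
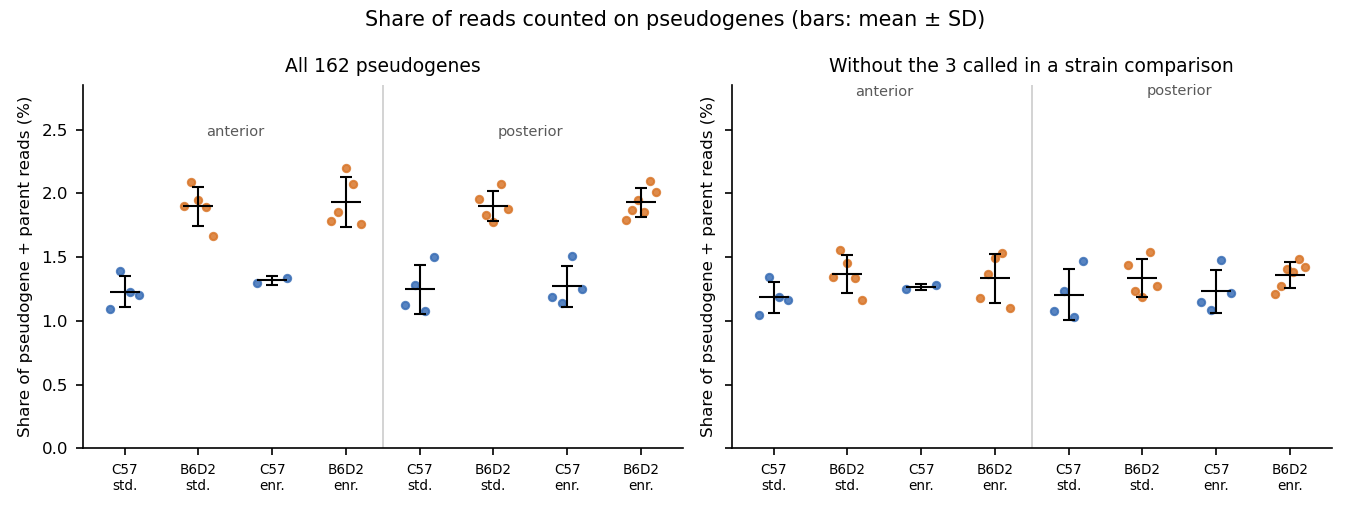
Share of the counts on pseudogenes among all counts on pseudogenes and their parents, in percent, per library (points, blue for C57BL/6J and orange for B6D2F1N mice), with mean and SD as bars, for all 162 members (left) and without the 3 called in a strain comparison (right). On the left no B6D2F1N library (1.66% or more) reaches down to a C57BL/6J library (1.51% or less), and on the right the strains overlap.

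The members' counts were concentrated in few genes. The 44741 counts had a median of 76.5 per member, the 2 members with the most counts held 20.2% of them, and the 20 with the most held 61.5%. Only 32 members were detected in every library. Per kb of exon, the median member had 0.215 CPM and the median parent 29.3 CPM, on the mean over all libraries. The exon length of a parent can far exceed its coding sequence, with 6270 against 393 bases in Rps15a and 3170 against 888 in Rpsa. Members had a median length of 465 bases. Dividing by the longer length lowers the parents' values, so the levels per kb of parents and members are not directly comparable. The 23 members in an intron on the same strand had a median of 230 counts, the 38 in an intron on the opposite strand 101.5, and the 95 outside other genes 61. For members in an intron on the same strand, reads of the host transcript cannot be separated from those of the pseudogene. On the opposite strand they cannot be either, since the strand setting of the counting is not given in the sources used here. The 19 members with every window in another gene had a median of 381 counts, and the 22 with no such window 57.5.

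**Figure D5:**
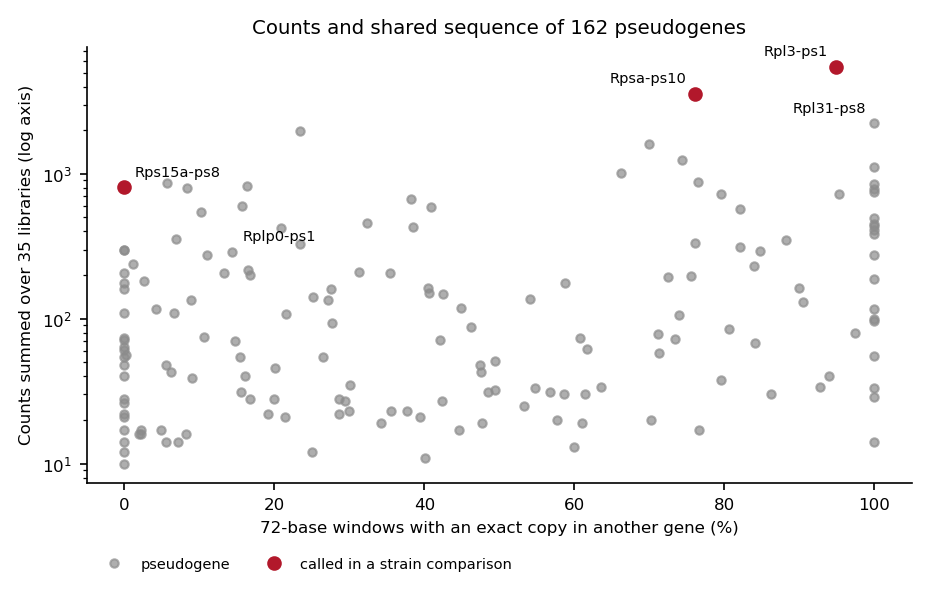
Counts summed over the 35 libraries (log axis) against the share of 72-base windows with an exact copy in another gene, for the 162 pseudogenes (grey), with the 3 called in a strain comparison in red. The 3 lie at 0, 76.0 and 94.9% of windows, so that copies with none and with nearly all windows shared were among them, in annotated transcripts of the reference.

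The largest families by number of members were those of Rpl31 (14 members), Rpl21 (9) and Rpl17 (8). Relative to the parent's counts, the 14 members of Rpl31 held group means of 55.4 to 69.8 counts per 1000 of the parent, with both strains in this range. The 6 members of Rpsa held fewer in the C57BL/6J groups, 6.82 to 12.3 per 1000, and more in the B6D2F1N groups, 187 to 218 per 1000. Rpsa-ps10 alone held 182 to 217 per 1000 in the B6D2F1N groups and 1.36 to 2.75 in the C57BL/6J groups. The order of these families was thus opposite in the 2 strains through this 1 member, which was named for its strain difference.

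Neither portion nor housing gave a call among the members in edgeR. Between the portions, with the mouse as a block, 0 of 114 members were called in the 6 C57BL/6J mice and 0 of 144 in the 10 B6D2F1N mice, against 3.64 and 4% of all genes. In C57BL/6J mice Rps12-ps1 and Rps2-ps11 had an unadjusted p under 0.05, in B6D2F1N mice 0 members had one (13.5 and 15.5% of all genes), and DESeq2 called 0 members in both. The median log2 fold change of all genes between posterior and anterior libraries was 0.01 in C57BL/6J and 0.15 in B6D2F1N mice, and that of the members was -0.13 and 0.21 (-0.19 to 0.13 and 0.18 to 0.28 with 1 mouse left out, the former turning sign without the standard mouse numbered 3 or the enriched mouse numbered 1). Without the mouse block, Rpl15-ps4, with 73 counts over all libraries, was called lower in posterior libraries of B6D2F1N mice (edgeR adjusted p = 0.0371, against 0.347 with the block).

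Between the housings, 0 of 91, 100, 109 and 124 members were called in C57BL/6J anterior, C57BL/6J posterior, B6D2F1N anterior and B6D2F1N posterior libraries, against 0, 0.0163, 0 and 0% of all genes. An unadjusted p under 0.05 was given to 1, 1, 4 and 1 members, against 6.2, 10.3, 6.3 and 6.59% of all genes, and DESeq2 called none. These were Rpl35-ps1 and Rpl31-ps20 in C57BL/6J anterior and posterior libraries, Rpl36a-ps4, Rpl30-ps9, Rpl31-ps3 and Rpl23a-ps14 in B6D2F1N anterior and Rpl7l1-ps1 in B6D2F1N posterior libraries.

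The interaction terms ask whether the strain difference itself changed with housing or portion. For strain by housing, 0 of 132 members in anterior and 0 of 147 in posterior libraries were called by edgeR and DESeq2, and 5 and 3 had an unadjusted p under 0.05 (5.98 and 8.38% of all genes). They were Rps19-ps11, Rpl23a-ps14, Rpl30-ps9, Rpl35-ps1 and Rpl17-ps4 in anterior and Rps2-ps12, Rps24-ps3 and Rpl7a-ps10 in posterior libraries. For strain by portion, 0 of 159 were called by edgeR, and Rps12-ps1 had an unadjusted p under 0.05 (2.96% of all genes). No gene at all passed the threshold in these 3 interaction tests in edgeR. For Rpsa-ps10, the strain difference changed with housing by -0.84 in anterior (95% interval -2.56 to 0.88) and -0.05 in posterior libraries (-1.45 to 1.35) on the log2 scale, and for Rpl3-ps1 by -0.20 (-1.48 to 1.08) and -0.09 (-1.22 to 1.04). Between portions it changed by 0.51 for Rpsa-ps10 (-0.86 to 1.88) and by 0.42 for Rpl3-ps1 (-0.45 to 1.28). For Rps15a-ps8, at 0 counts in every C57BL/6J library, no interaction could be estimated.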

How the data were processed

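The authors prepared mRNA libraries from laser-captured amygdala cells and read 72 bases from 1 end. The submitters' processing notes name bcl2fastq, FastQC 0.11.7, Trimmomatic 0.38, HISAT2 2.1.0, SAMtools 1.8 and HTSeq 0.11.2 with GRCm38; the annotation release and strand setting are not given in the sources used here. The deposited values are raw read counts per gene and library, without scaling or a filter. HTSeq left out the 6.23 to 10.9% of reads without a unique alignment. It also left out 13.7 to 26.4% assigned to no counted feature of a gene and 3.06 to 3.74% on more than 1 gene.

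Gene types and sequences came from GENCODE M21. The 162 members, the gene lists and the tests were chosen with earlier results of these data known. The whole table was fitted in every comparison with edgeR 4.0.16 (TMM, quasi-likelihood F test, R 4.3.3), keeping genes with a summed count of 10 or more; p-values were adjusted over all genes kept, and calls were made at 0.05. Libraries of a mouse were blocked in the comparison of portions, since mouse codes in the labels pair them; the deviations of the 2 libraries from their group means correlated with a median r of 0.0704 over the 16 mice (across 16022 genes, which are not replicates). Replicates are separate mice, numbered in accession order. Named are members called in a strain comparison, the 5 with the highest mean CPM, those called in other comparisons and the 3 with the smallest p among those not called in any strain comparison, each with its parent; others are named where a count is 5 or lower. Fold changes against 0 counts use 3 counts per library. Each standard error is the absolute log2 fold change divided by the square root of the F statistic, since the F test itself gives none. The 95% intervals of log2 fold changes are symmetric, from this standard error and the t distribution. They are approximate, above all where a group is near 0 counts. DESeq2 1.42.0, other size factors and filters, a robust fit, 1 fit of 4 groups, no block and leaving out each library were alternatives. The edgeR fits of strain in standard anterior libraries and of portion in B6D2F1N mice were run on simulated counts with known changes. Other comparisons were not simulated, and no result here rests on these runs.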

Additional observations from a re-analysis of the deposited data

Results flagged for a closer look

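In 10 of the 63 groups of 4 to 6 libraries tested, the highest or lowest library lay farther from the others than Dixon's 95% limit allows. Chance gives about 1 group in 20 for continuous values, but this rate does not hold for tied low counts, and 6 of these groups were C57BL/6J groups at 0 to 4 counts. In the 4 of them where the other libraries were all at 0, any single count passes the limit by construction. In Rpsa-ps10 the high libraries were at 0.115 CPM (standard anterior replicate 4) and 0.156 CPM (standard posterior replicate 3), in Rplp0-ps1 at 0.0561 and 0.0811 CPM (standard replicate 2 of the anterior and posterior groups), and in Rpl15-ps2 at 0.0457 and 0.0390 CPM (standard replicate 3 of both). The other libraries of those Rplp0-ps1 and Rpl15-ps2 groups were at 0.

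Among better covered values, Rpl3-ps1 was at 3.54 CPM in C57BL/6J enriched posterior replicate 2, against 0.815 to 1.22 in the others, and still below every B6D2F1N library. Rps15a-ps8 was at 3.33 CPM in B6D2F1N standard posterior replicate 3, against 1.34 to 1.79. Rplp0-ps1 was at 1.13 CPM in B6D2F1N enriched posterior replicate 6, against 0.360 to 0.571. Rpl14-ps1 was low, at 1.53 CPM, in B6D2F1N enriched posterior replicate 4, against 3.55 to 4.22, and this library made the strains overlap there. What set these libraries apart was not tested.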

How the results depend on the processing

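The number of members called moved by over 1.5 times under 4 alternatives of the strain comparisons. DESeq2 called 5 members in place of 3 in standard posterior and 3 in place of 0 in enriched anterior libraries, where testing without a minimum count and 1 fit of 4 groups each called 1, Rpsa-ps10 (adjusted p = 0.0117 and 0.000611). In these libraries leave-one-out gave 0 to 1 members, with the 1 without B6D2F1N replicate 2. Leaving out a C57BL/6J library there leaves 1, which is assumed to vary like the other group. In standard anterior libraries leave-one-out gave 2 to 3 members, with Rps15a-ps8 lost as described above. In the paired comparison of portions, no replicate block gave 1 member in B6D2F1N mice in place of 0, and the block changed no other count of members called. Among small differences, leaving out 1 library turned the sign of Rpl31-ps8 (ranges -0.26 to 0.09, -0.21 to 0.22, -0.58 to 0.28 and -0.26 to 0.18 on the log2 scale in standard anterior, standard posterior, enriched anterior and enriched posterior libraries) and of Rps19-ps3 in standard anterior libraries (-0.12 to 0.43). The folds of Rplp0-ps1 and Rpl15-ps2 and the medians over members and ribosomal protein genes also moved with single libraries, as given above; these and the values without the mouse at 0 counts of Xist were added after seeing the data. The other 38 recomputed counts outside leave-one-out were within 1.5 times. Depth limits most members, with a median of 76.5 counts over 35 libraries.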
